A study of Mus musculus with 12 samples.

Results

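Tight junctions were followed in sorted prostate epithelium through 9 genes: 7 claudins (Cldn1, Cldn3, Cldn4, Cldn7, Cldn8, Cldn10 and Cldn23), occludin (Ocln) and ZO-1 (Tjp1). They were chosen by name, with earlier results of these data known, from 18193 genes with probe sets of a single symbol. Each was represented by the probe set with the highest mean log2(signal + 16). All 9 were among the 14645 genes tested. Cells came from the prostates of adult male C57BL/6 mice, 8 weeks old at the start, in 3 distinct sets of animals that served as biological replicates. Castrated mice had undergone surgical orchiectomy 4 weeks before the tissue was taken, and intact mice had kept their testes. Dissociated cells without lineage antigens (Lin-) and with the epithelial antigen EpCAM were sorted by the integrin CD49f. Luminal cells had low and basal cells high CD49f. Both cell types from both kinds of mice made 4 groups of 3 arrays, and the labels name no engineered allele. Intact mice are described as paired with the castrated ones. The sources used here give neither the number of mice in a set nor whether luminal and basal arrays of one number came from the same animals.

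Claudins span the membrane and seal, or form selective pores in, the space between neighbouring epithelial cells. Occludin is a further membrane protein of the same strands, and ZO-1 is the cytoplasmic scaffold that ties claudins and occludin to actin. In the prostate, luminal cells line the gland lumen and carry the apical junctions that hold the secretion back, while basal cells lie beneath them on the basement membrane. Claudin family members differ in what they let pass, so the set that a cell transcribes is part of its identity.

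Luminal and basal cells differed in the level of several of these genes, and the difference was present with and without testes. In intact mice Cldn3, Cldn7, Cldn8, Cldn10 and Ocln were higher in luminal cells, Cldn1 was lower there, and Cldn4, Cldn23 and Tjp1 did not pass the test. That is 6 of the 9 genes, where 19.5% of all genes passed (limma, Benjamini-Hochberg adjusted p under 0.05). The same 6 genes passed with the same directions in castrated mice, where 18.4% of all genes passed. Arrays of the luminal and the basal group did not overlap for 6 of the 9 genes in intact mice, against 32% of all genes, and for 8 of the 9 in castrated mice, against 41.1%. The median log2 difference of the 9 genes, luminal minus basal, was 1.34 in intact and 1.72 in castrated mice, beside 0.07 and 0.08 over all genes. The 2 comparisons share no array. The 9 genes were picked with earlier results of these data known, so these counts describe them and no wider set. Over 10 other claudins the median differences were -0.11 in intact and -0.71 in castrated mice. In such bulk samples, fewer cells of a type and less RNA per cell cannot be told apart.

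**Figure D1:**
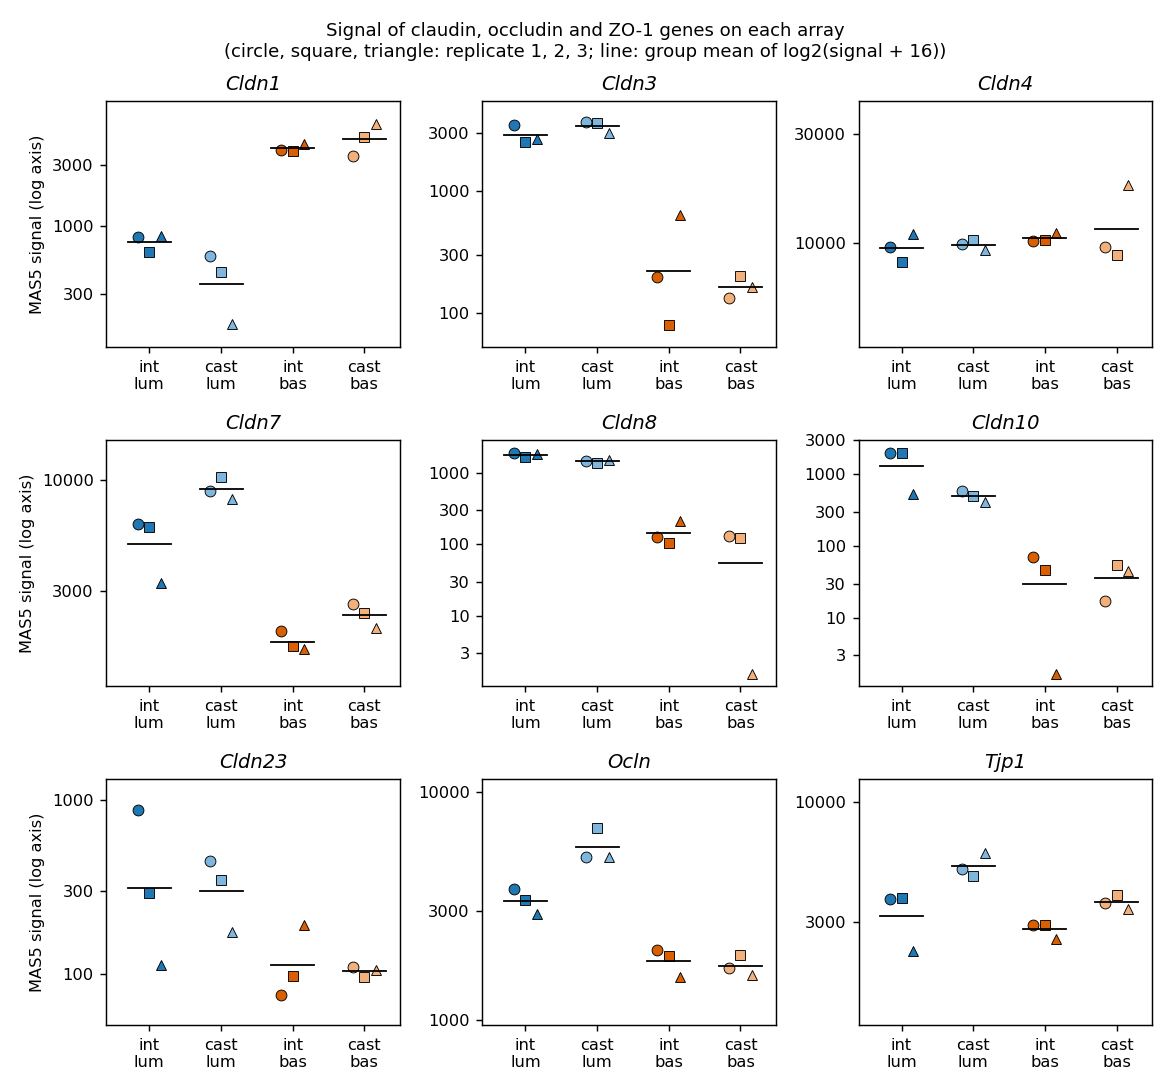
MAS5 signal of each gene on each of the 12 arrays, on a log axis scaled per panel. Luminal groups are blue and basal groups orange, with castrated mice in the lighter shade, markers give replicates 1 to 3 and lines the group means of log2(signal + 16). Cldn1 lies higher in basal cells, Cldn3, Cldn8 and Cldn10 lie higher in luminal cells, and Cldn4 lies at a like signal in all groups.

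Cldn3 encodes a sealing claudin of many glandular epithelia. Its signal on the 3 replicates was 3503, 2534 and 2664 in intact luminal cells and 3655, 3626 and 3014 in castrated luminal cells. Basal cells read 200, 79.6 and 643 with testes and 135, 201 and 164 without. Every luminal array lay above every basal array, and the third intact basal array was the highest of the basal arrays. The luminal minus basal difference was 3.60 log2 units (SE 0.52, 12.1-fold, adjusted p = 1.09e-04, limma) in intact mice and 4.25 (SE 0.52, 19.0-fold, adjusted p = 2.18e-05) in castrated mice. The gene had 4 probe sets, and the 3 not used here gave differences of 2.78 to 4.76 in intact and 4.14 to 4.79 in castrated mice, all past the threshold.

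Cldn8, which encodes a barrier-forming claudin known from the distal nephron, showed the same split. Luminal signals were 1912, 1634 and 1804 in intact and 1477, 1353 and 1517 in castrated mice. Basal signals were 126, 104 and 215 in intact mice and 129, 121 and 1.56 in castrated mice. The last value stood far below the other basal arrays. The difference was 3.51 (SE 0.64, adjusted p = 9.59e-04, limma) in intact and 4.38 (SE 0.64, adjusted p = 1.29e-04) in castrated mice. Without that array the latter was 3.38 and still passed.

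Cldn10 encodes a claudin whose isoforms form ion pores. Its signal was 2007, 1959 and 539 in intact luminal cells and 585, 500 and 413 in castrated luminal cells. Basal cells gave 69.8, 47.1 and 1.68 in intact mice and 17.2, 53.8 and 45.7 in castrated mice, and 1 of the 3 intact and 2 of the 3 castrated basal arrays exceeded the 40th percentile of their array. The gene thus stood near the bottom of the signal range in basal cells, so the size of its difference depends on the constant added. On log2(signal + 16) it was 4.83 (SE 0.68, adjusted p = 8.10e-05, limma) in intact and 3.29 (SE 0.68, adjusted p = 0.00235) in castrated mice. The probe set is of the type that can match several transcripts.

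Cldn7, a claudin also found on lateral membranes where it binds EpCAM, was present in both cell types. Luminal signals were 6178, 6000 and 3265 in intact mice and 8856, 10232 and 8074 in castrated mice. Basal signals were 1933, 1646 and 1596 in intact mice and 2599, 2351 and 1993 in castrated mice. The 4 groups did not overlap, in the order castrated luminal, intact luminal, castrated basal and intact basal from high to low. Luminal cells exceeded basal cells by 1.52 log2 units (SE 0.26, 2.86-fold, adjusted p = 5.70e-04, limma) in intact mice and by 1.96 (SE 0.26, 3.90-fold, adjusted p = 5.30e-05) in castrated mice. The step between intact luminal and castrated basal cells was not tested, and the castration differences within each cell type did not pass the test.

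Ocln read 3747, 3360 and 2935 in intact luminal cells, 5173, 6985 and 5171 in castrated luminal cells, 2028, 1904 and 1547 in intact basal cells, and 1694, 1927 and 1585 in castrated basal cells. The luminal groups stood apart from each other and from the basal groups, while the basal groups overlapped. The luminal minus basal difference was 0.87 (SE 0.25, 1.83-fold, adjusted p = 0.0190, limma) in intact mice and 1.72 (SE 0.25, 3.28-fold, adjusted p = 1.02e-04) in castrated mice. The call in intact mice was lost without intact basal replicate 3 (0.76, adjusted p = 0.0608), intact luminal replicate 1 (0.79, adjusted p = 0.0726) or intact luminal replicate 2 (0.86, adjusted p = 0.0541). A second Ocln probe set gave 0.57 (adjusted p = 0.559) in intact and 2.29 (adjusted p = 0.00985) in castrated mice.

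Cldn1 ran the other way. It encodes the claudin on which the epidermal barrier depends. Luminal signals were 831, 632 and 848 in intact mice and 593, 446 and 176 in castrated mice. Basal signals were 3920, 3821 and 4362 in intact mice and 3487, 4911 and 6212 in castrated mice. Each basal array exceeded each luminal array. The luminal minus basal difference was -2.37 (SE 0.39, 5.19-fold lower, adjusted p = 3.25e-04, limma) in intact mice and -3.65 (SE 0.39, 12.6-fold lower, adjusted p = 4.45e-06) in castrated mice. A second probe set that passed the filter gave -2.61 (adjusted p = 0.00115) and -3.16 (adjusted p = 2.19e-04). The gene's other 2 probe sets stayed below the filter on all 12 arrays.

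Cldn4, a claudin that seals and can limit sodium passage, was bright in every group. Its signal was 9652, 8253 and 10990 in intact luminal, 9910, 10305 and 9304 in castrated luminal, 10236, 10391 and 11070 in intact basal and 9596, 8874 and 17931 in castrated basal cells. All groups overlapped, and the third castrated basal array was the highest. The luminal minus basal difference was -0.14 (95% interval -0.61 to 0.33) in intact and -0.23 (95% interval -0.70 to 0.24) in castrated mice. Cldn3 and Cldn4 are neighbours on chromosome 5 in the mouse annotation, with no protein-coding gene listed between them. Yet their patterns differed: the arrays separated by cell type for Cldn3 and overlapped for Cldn4.

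Tjp1 signals were 3766, 3830 and 2225 in intact luminal, 5113, 4780 and 5986 in castrated luminal, 2915, 2907 and 2518 in intact basal and 3627, 3937 and 3419 in castrated basal cells. Luminal and basal arrays overlapped in intact mice and stood apart in castrated mice. The luminal minus basal difference was 0.20 (95% interval -0.32 to 0.71, adjusted p = 0.646, limma) in intact and 0.53 (95% interval 0.01 to 1.05, adjusted p = 0.157) in castrated mice. Cldn23, a less studied claudin, read 875, 290 and 113 in intact luminal, 445, 348 and 173 in castrated luminal, 75.9, 97.2 and 191 in intact basal and 110, 96.0 and 106 in castrated basal cells. Its intact luminal arrays spread widely. The difference was 1.34 (SE 0.67, adjusted p = 0.181) in intact and 1.40 (SE 0.67, adjusted p = 0.163) in castrated mice. Over the 12 fits without 1 array the former ran from 0.62 to 2.02, with adjusted p from 0.0398 to 0.599. The highest value came without intact luminal replicate 3. Without all 4 arrays of replicate 3 the difference in intact mice was 2.36 (adjusted p = 0.0186).

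**Figure D2:**
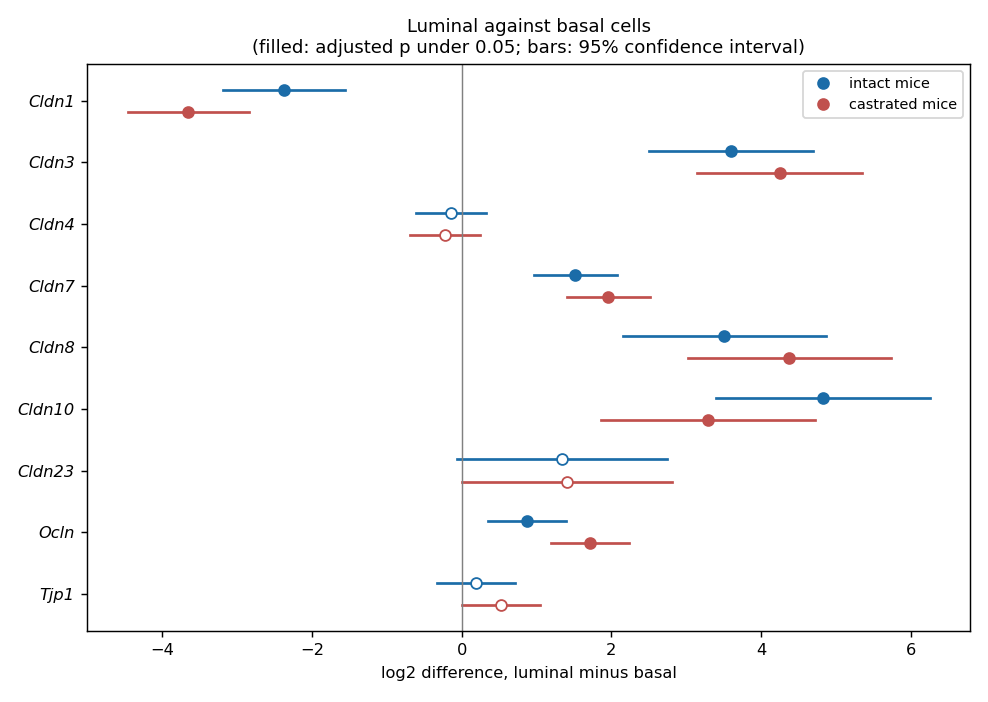
Log2 difference, luminal minus basal, of each gene in intact (blue) and castrated (red) mice, with 95% confidence intervals from limma and filled points for an adjusted p under 0.05. 5 genes lie to the right of 0 with filled points in both, Cldn1 lies to the left in both, and Cldn4 lies close to 0.

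The stretches around the transcription start are shown for some of the genes higher in luminal cells (Cldn3, Cldn7, Ocln). Those of the evenly read neighbour Cldn4 and of the basal gene Cldn1 are also shown. The stretches of Cldn10, also higher in luminal cells, of Tjp1 and the first of Cldn7 are not shown. They held none of the letters marked below. RefSeq windows (GRCm38.p6) of 300 bases, 250 before to 50 from the start, were matched for 7 of the 9 genes, in 10 windows. Cldn8 and Cldn23 are named only. The capitals mark CAGGTG or its reverse complement CACCTG, the E-box letters that repressors of the Snail family bind. All are written 5′ to 3′ on the gene's strand.
Cldn3, chr5:134985964-134986263, plus strand: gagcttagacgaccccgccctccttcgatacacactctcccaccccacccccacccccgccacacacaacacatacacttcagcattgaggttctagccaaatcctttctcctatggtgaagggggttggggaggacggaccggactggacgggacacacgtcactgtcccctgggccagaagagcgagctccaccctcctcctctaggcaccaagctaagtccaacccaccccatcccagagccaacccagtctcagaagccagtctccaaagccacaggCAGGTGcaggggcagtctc
Cldn4, chr5:134946885-134947184, minus strand: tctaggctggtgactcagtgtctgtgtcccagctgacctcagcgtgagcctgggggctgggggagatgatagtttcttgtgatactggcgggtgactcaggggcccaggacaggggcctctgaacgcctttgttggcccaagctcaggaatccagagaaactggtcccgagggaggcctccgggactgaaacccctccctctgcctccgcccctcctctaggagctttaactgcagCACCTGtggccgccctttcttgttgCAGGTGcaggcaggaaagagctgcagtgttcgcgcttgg
Cldn7 (second start), chr11:69965171-69965470, plus strand: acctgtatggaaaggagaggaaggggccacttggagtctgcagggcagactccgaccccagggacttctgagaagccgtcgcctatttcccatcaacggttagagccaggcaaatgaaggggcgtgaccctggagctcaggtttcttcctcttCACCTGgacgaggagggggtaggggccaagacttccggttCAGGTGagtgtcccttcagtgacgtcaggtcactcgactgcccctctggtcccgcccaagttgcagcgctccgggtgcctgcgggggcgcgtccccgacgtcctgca
Ocln (first start), chr13:100552449-100552748, minus strand: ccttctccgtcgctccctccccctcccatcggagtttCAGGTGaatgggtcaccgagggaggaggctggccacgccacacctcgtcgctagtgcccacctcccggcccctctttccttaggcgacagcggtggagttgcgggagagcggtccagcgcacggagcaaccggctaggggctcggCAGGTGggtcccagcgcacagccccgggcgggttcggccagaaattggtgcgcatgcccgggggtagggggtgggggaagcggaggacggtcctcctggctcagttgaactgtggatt
Cldn1, chr16:26371790-26372089, minus strand: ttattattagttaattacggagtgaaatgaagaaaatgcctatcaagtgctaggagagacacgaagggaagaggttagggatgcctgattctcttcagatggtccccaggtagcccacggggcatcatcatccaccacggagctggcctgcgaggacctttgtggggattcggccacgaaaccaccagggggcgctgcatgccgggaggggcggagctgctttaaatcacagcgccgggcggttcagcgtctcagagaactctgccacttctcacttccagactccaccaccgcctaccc

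The letters occurred in 5 of the 10 windows, and in 20.2% of 32851 mouse windows. These were windows of Cldn3, Cldn4 and Cldn7 and both overlapping windows of Ocln. The only match in the second Ocln window is a site that the first holds as well. By gene, the letters occurred in 4 of the 7 matched, beside 6098 of 27025 mouse genes. Counted from the start as 1, the match in Cldn3 began at base 32. The matches in Cldn4 began at -14 and 12, those in Cldn7 at -97 and -57, and those in Ocln at -213 and -68. The windows of Cldn1, Cldn10 and Tjp1 and the first window of Cldn7 held none. Genes with the letters therefore included Cldn4, whose arrays overlapped between cell types. Genes without them included Cldn10, which was higher in luminal cells. AGAACA, the half-site letters of steroid receptors, and its reverse complement TGTTCT occurred in none of the 10 windows and in 19.0% of all windows. A match is a description of these letters and does not show binding.

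Among transcription factors known to act on junction genes, 6 of 15 passed between cell types in intact mice, beside 19.5% of all genes, and 4 of 15 in castrated mice, beside 18.4%, with 1 higher and 2 lower in both. Snai2 encodes Slug, a Snail-family repressor of epithelial genes. Its signal was 65.8, 45.1 and 12.1 in intact luminal and 31.5, 50.7 and 51.0 in castrated luminal cells, against 9573, 8295 and 8120 in intact basal and 13530, 12204 and 18646 in castrated basal cells. Luminal cells were lower by -7.38 log2 units (SE 0.41, adjusted p = 1.53e-08, limma) in intact mice and -7.93 (SE 0.41, adjusted p = 3.17e-09) in castrated mice. Since 3 of the 6 luminal arrays lay below the 40th percentile, the size depends on the constant added. Klf4, an epithelial differentiation factor, was lower in luminal cells in both (-0.87 and -1.33), and the Ets factor Ehf was higher in both (1.33 and 0.90). Elf3, a further epithelial Ets factor, passed in intact mice (1.79), and Grhl1, a grainyhead factor, passed in castrated mice (1.61). Ovol1 (-2.69) and Klf5 (-1.34) were lower in luminal cells of intact mice. The Ehf call in castrated mice was lost in 8 of the 12 fits that left out 1 array. The Grhl1 call was lost in 3 of those fits and without an intensity trend. In intact mice the Klf4 call was lost without an intensity trend and the Klf5 call with averaged probe sets.

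After castration none of the 9 genes passed in luminal cells, where 5.86% of all genes passed, and none in basal cells, where 2.62% did. At an unadjusted p under 0.05 there were 4 in luminal cells (Cldn1, Cldn7, Ocln and Tjp1), beside 19.3% of all genes, and 0 in basal cells, beside 17.8%. The arrays of castrated and intact mice did not overlap for 5 of the 9 genes in luminal cells, against 31.8% of all genes, and for 2 of 9 in basal cells, against 19.8%. Median differences of the 9 genes, castrated minus intact, were 0.04 in luminal and 0.12 in basal cells, beside -0.09 and -0.11 over all genes. These comparisons use the same arrays as those between cell types.

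In luminal cells, 3 genes had higher signals on every castrated array than on every intact array. Cldn7 differed by 0.86 log2 units (95% interval 0.31 to 1.42, adjusted p = 0.0645, limma), Ocln by 0.78 (0.26 to 1.30, adjusted p = 0.0758) and Tjp1 by 0.73 (0.21 to 1.25, adjusted p = 0.0984). Intact luminal replicate 3 was the lowest of its group for all of them. Without it the differences were 0.56, 0.69 and 0.47, none past the threshold. Median signal was lower on every castrated array (57.7 to 73.9) than on every intact array (78.8 to 99.9). Centring each array on its median raised the median of all genes from -0.09 to 0.29 and brought Cldn7 (1.24), Ocln (1.16) and Tjp1 (1.11) past the threshold. Relative to that shift the changes were close to those without centring.

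Cldn1 and Cldn8 had lower signals on every castrated luminal array than on every intact one. The Cldn1 difference was -1.04 (95% interval -1.86 to -0.23, adjusted p = 0.133, limma), and it was -0.55 without castrated luminal replicate 3. Its second probe set gave 0.09. Cldn8 differed by -0.29 (95% interval -1.65 to 1.06). The Cldn10 difference was -1.35 (95% interval -2.78 to 0.08, adjusted p = 0.290), and intact luminal replicate 3 lay within the range of the castrated arrays. Without it the difference was -1.97 (adjusted p = 0.143). For Cldn3 the difference was 0.25 (95% interval -0.85 to 1.35) and for Cldn4 0.04 (95% interval -0.43 to 0.51).

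In basal cells, Cldn7 (0.42, 95% interval -0.14 to 0.97) and Tjp1 (0.40, 95% interval -0.12 to 0.92) had non-overlapping arrays, higher after castration. The other differences ran from -1.16 for Cldn8 (-0.16 without castrated basal replicate 3) to 0.23 for Cldn1. Whether the castration difference itself depended on cell type was tested as an interaction. None of the 9 genes passed, where 1.15% of all genes did. At an unadjusted p under 0.05 there were 2, Cldn1 (-1.28, SE 0.55, adjusted p = 0.334, limma) and Ocln (0.85, SE 0.35, adjusted p = 0.311).

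**Figure D3:**
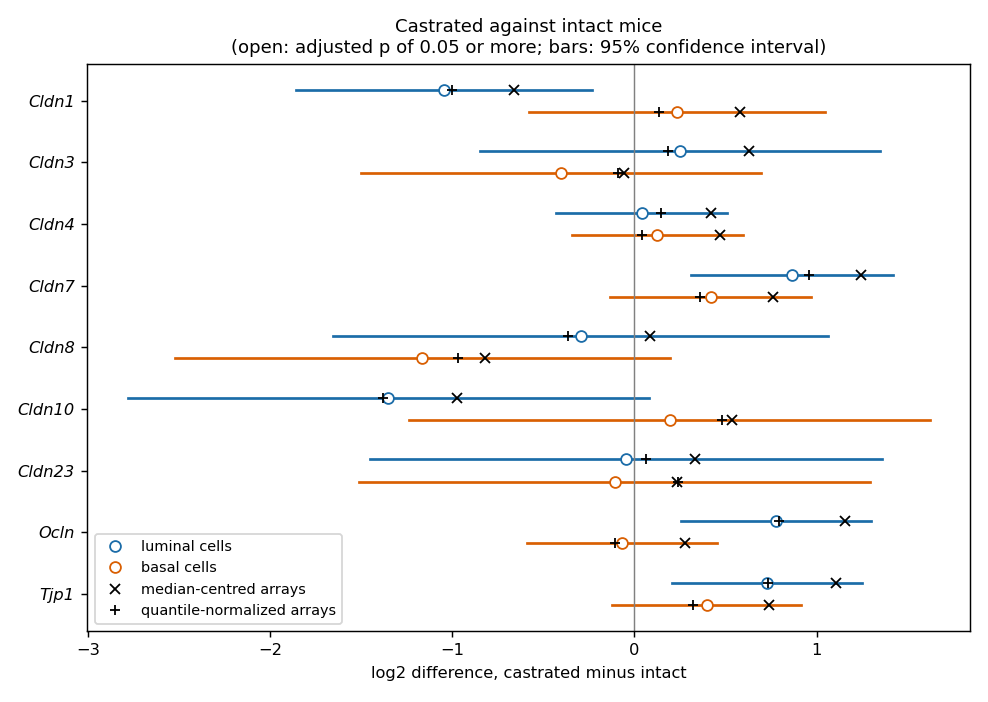
Log2 difference, castrated minus intact, of each gene in luminal (blue) and basal (orange) cells, with 95% confidence intervals from limma and open points for an adjusted p of 0.05 or more. Crosses and plus signs give the differences after median centring and quantile normalization of the arrays. In luminal cells Cldn7, Ocln and Tjp1 have intervals above 0 and Cldn1 an interval below 0, and none of the open points passed the threshold. After median centring Cldn7, Ocln and Tjp1 passed in luminal cells, and after quantile normalization Cldn7 did.

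Over the 12 arrays, the 5 genes higher in luminal cells correlated with each other at Pearson coefficients of 0.789 to 0.962 on log2(signal + 16), and with Cldn1 at -0.927 to -0.806. All points share the luminal and basal split, so these values describe that split. By the same measure the genes most like Cldn1 were Pdpn (0.979), Hs3st1 (0.970) and the basal factor Trp63 (0.969). Those most like Cldn3 were Mmp7, which encodes the protease matrilysin (0.983), Slc16a7 (0.975) and Xpnpep1 (0.969). Cldn7 was nearest to Reps2 (0.976), Il1rl2 (0.974) and Slc49a4 (0.968), and Ocln to Chl1 (0.979), Krt23 (0.978) and Mboat1 (0.971).

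For Cldn8 the nearest genes were Bex4 (0.984), Cryab (0.984) and Tspan1 (0.978), and for Cldn10 they were Tvp23b (0.983), Hacd2 (0.977) and Slc9a2 (0.973). Cldn4, with little spread between groups, had lower coefficients, to Sfrp1 (0.862), Vxn (0.862) and Ankrd13b (0.859). Cldn23 was nearest to Mtmr3 (0.919), C1galt1c1 (0.914) and Adal (0.908). Tjp1 was nearest to Lgals3 (0.949), Ehd4 (0.944) and Cfdp1 (0.939).

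The rest of the junction was read from 75 further genes. In intact mice 17 were higher and 17 lower in luminal than in basal cells, and in castrated mice 19 were higher and 13 lower. For comparison, 11% of all genes were higher and 8.45% lower in intact mice, and 11.2% and 7.22% in castrated mice. Of 10 other claudins, Cldn2 passed in both and Cldn6 in intact mice. Cldn2 forms a pore for cations and water. Its signal was 716, 1321 and 516 in intact luminal and 2024, 1679 and 796 in castrated luminal cells, while basal arrays read from 1.41 to 65.0. The difference was 4.55 (SE 0.66, adjusted p = 1.18e-04, limma) in intact and 5.54 (SE 0.66, adjusted p = 1.70e-05) in castrated mice. As 5 of the 6 basal arrays lay below the 40th percentile of their array, the size depends on the constant added.

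Among 12 other membrane proteins of the junction, Crb3, the apical polarity protein, was higher in luminal cells in both (2.38 and 2.87), with both calls lost when probe sets of a gene were averaged. Marveld2 encodes tricellulin, which seals corners where cells meet, and lies next to Ocln among the protein-coding genes of chromosome 13. It read 0.17 (adjusted p = 0.767, limma) in intact and 1.27 (adjusted p = 0.00959) in castrated mice. F11r, the adhesion molecule JAM-A, was lower in luminal cells of intact mice (-0.79, adjusted p = 0.0249) and did not pass in castrated mice (-0.20, adjusted p = 0.608). The related receptor Cxadr was lower in intact luminal cells (-0.82), a call lost with averaged probe sets, without an intensity trend, in the 2-group fit and without the 4 arrays of replicate 3. Lsr, which recruits tricellulin, passed in neither (-0.03 and 0.31). The F11r call was lost in 3 of the 12 fits that left out 1 array and with median centring.

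Of 26 scaffolds and adaptors, 6 were higher and 6 lower in luminal cells of intact mice, beside 11% and 8.45% of all genes. In castrated mice 9 were higher and 5 lower, beside 11.2% and 7.22%, with 5 higher and 5 lower in both. Cgn encodes cingulin, which links ZO proteins to actomyosin. It was higher by 1.65 (SE 0.48, adjusted p = 0.0209, limma) in intact and 3.90 (SE 0.48, adjusted p = 2.07e-05) in castrated mice. The ZO-family gene Tjp3 was higher in both (2.34 and 2.57), although its calls were lost in 2 and 4 of the 12 fits without 1 array. Cgnl1, the cingulin relative paracingulin (3.20 and 1.67), and the polarity gene Pard6b (1.36 and 1.40) were higher in both. Amotl1, an angiomotin (-2.53 and -2.44), the scaffold Mpdz (-2.32 and -2.22), Ybx3, which encodes a ZO-1-binding factor (-1.98 and -1.17), Pard3 (-1.75 and -0.88) and Pard6g (-1.31 and -2.34) were lower in both. In intact mice the Cgn call was lost in 2 and the Pard6g call in 4 of the 12 fits without 1 array. In castrated mice the Pard3 and Cgnl1 calls were lost in 4 each, the Pard3 call also with median centring and the Cgnl1 call with quantile normalization.

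Of 13 adherens junction genes, 1 was higher and 4 were lower in luminal cells of intact mice, beside 11% and 8.45% of all genes. In castrated mice 0 were higher and 5 lower, beside 11.2% and 7.22%. Nectin1 was lower in luminal cells by -4.45 and -2.21 (adjusted p = 5.14e-06 and 0.00325, limma), and Cdh3, P-cadherin, by -1.91 and -2.16. Nectin4 was higher in luminal cells of intact mice (4.53). Of 9 desmosome genes, 2 were higher and 5 lower in intact mice, and 3 were higher and 3 lower in castrated mice, beside the same shares of all genes. The plakophilins split, with Pkp1 lower (-4.06 and -3.52) and Pkp2 higher (2.64 and 5.03) in luminal cells. Perp, a desmosomal membrane protein, was lower in both (-1.34 and -0.84) and the cadherin Dsc2 higher in both (1.85 and 2.12). In each comparison the Cdh3 call was lost in 3 of the 12 fits without 1 array. In intact mice it was also lost with averaged probe sets and in the 2-group fit. The Dsc2 call in intact mice was lost with averaged probe sets, and the Perp call in castrated mice without an intensity trend.

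Among 5 claudin partners and junction proteases, all were higher in luminal cells of intact mice and 4 in castrated mice, beside 11% and 11.2% of all genes. The membrane protease matriptase (St14; 1.70 and 2.27), prostasin (Prss8; 3.68 and 4.35) and their inhibitors Spint1 (2.09 and 2.50) and Spint2 (1.56 and 1.16) passed in both. Epcam, which binds Cldn7, was higher in intact mice (0.79). Its protein was part of the sort gate in all groups, so the cells were chosen in part on it. Without Epcam, 16 of 74 further junction genes were higher in luminal cells of intact mice.

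**Figure D4:**
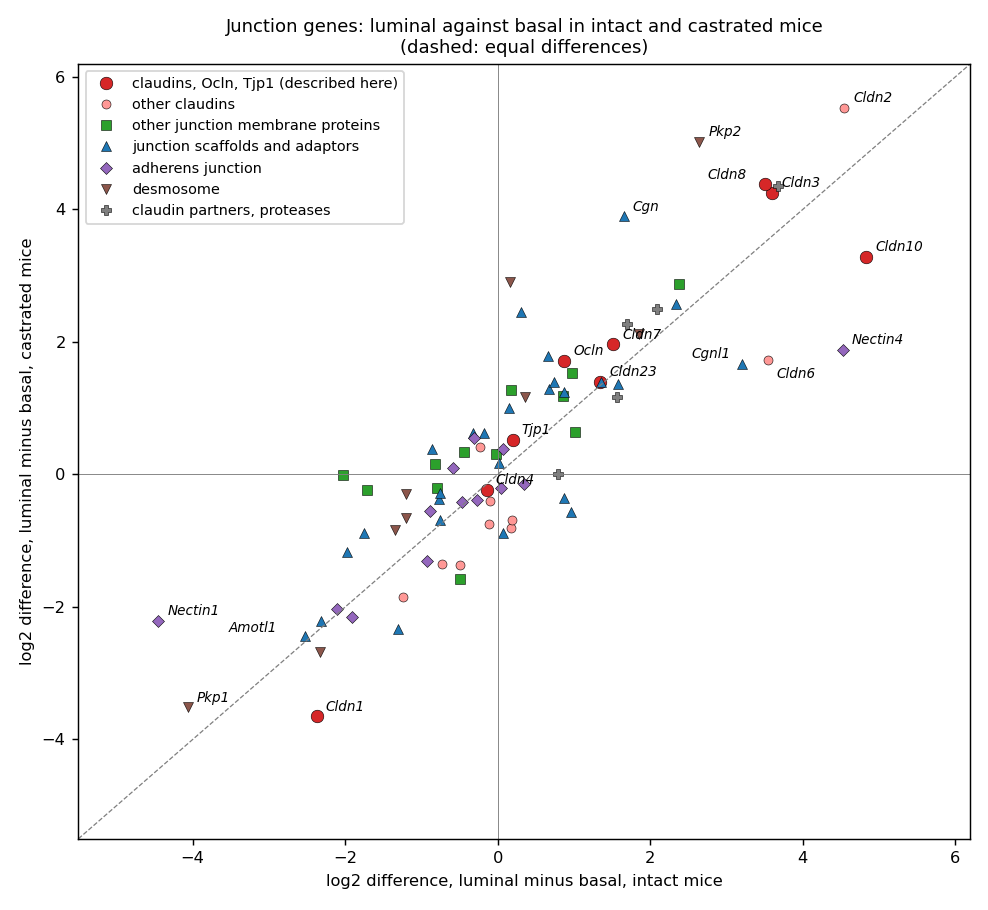
Log2 difference, luminal minus basal, in intact mice (horizontal axis) and in castrated mice (vertical axis) for the 9 genes (large red points) and the other measured junction genes by class, with a dashed line of equal differences. Cldn2, Cldn3, Cldn8 and Cldn10 lie at the upper right with Pkp2, and Cldn1 lies at the lower left with Pkp1 and Nectin1.

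After castration 10 of the 75 further genes were higher and 1 lower in luminal cells, where 2.9% and 2.96% of all genes were. Cxadr was higher by 1.32 (SE 0.21, adjusted p = 9.95e-04, limma), from signals of 3315, 2844 and 2446 in intact to 6436, 7907 and 7191 in castrated luminal cells. Cdh1, E-cadherin (0.87), Dsp, desmoplakin (0.93), the desmosomal cadherin Dsc1 (3.48) and Pard6b (1.20) were also higher and, like Cxadr, kept their call in each of the 12 fits without 1 array. The Cdh1 and Pard6b calls were lost without an intensity trend and without the 4 arrays of replicate 3, and the Dsp call without an intensity trend. For Dsc1, 1 of the 3 intact luminal arrays exceeded the 40th percentile, so the size of its difference depends on the constant added. F11r (0.86), Pard3 (1.08), the polarity kinase Prkci (1.16), Nectin1 (1.88) and Dsc2 (1.52) were higher and lost it in 4 to 9 of those fits. The F11r call was also lost with a replicate block, and the Dsc2 call with quantile normalization. Cldn6, a claudin known from embryonic epithelia, was lower by -2.57 (SE 0.67, adjusted p = 0.0302) and lost its call in 5 and with quantile normalization. Cgn was 1.53 higher without passing (SE 0.48, adjusted p = 0.0713), as was Marveld2 (0.88, adjusted p = 0.128), Lsr (0.68, adjusted p = 0.203) and Tjp3 (0.42, adjusted p = 0.806). Ovol1 (1.61) and Klf5 (1.11) were the transcription factors that passed, and both calls were lost, with a change of sign for Klf5, when probe sets of a gene were averaged. They were also lost in 5 (Ovol1) and 4 (Klf5) of the 12 fits without 1 array.

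In basal cells 4 of the 75 were higher after castration and 0 lower, where 1.12% and 1.5% of all genes were. These were Cldn12 (1.04, SE 0.24, adjusted p = 0.0343, limma), Pard6b (1.15, adjusted p = 0.0288), Mpp7 (1.13, adjusted p = 0.0465) and Epcam (0.73, adjusted p = 0.0127). Calls without 1 array were lost in 7 of 12 fits for Cldn12, 5 for Pard6b, 11 for Mpp7 and 0 for Epcam. The Epcam call was lost with averaged probe sets, without an intensity trend and in the 2-group fit, and its protein was part of the sort gate. Without Epcam, 3 of 74 were higher. The Cldn12 and Mpp7 calls were also lost with quantile normalization, and the Mpp7 call with a replicate block. Ovol1, a repressor that promotes epithelial differentiation, was lower (-1.79, adjusted p = 0.0274). That call was lost in 5 of the 12 fits without 1 array, and also with median centring, averaged probe sets or array weights, without an intensity trend and without the 4 arrays of replicate 3. F11r (0.27), Marveld2 (-0.22), Lsr (0.34), Cgn (-0.72) and Tjp3 (0.20) did not pass.

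Arrays of a group correlated at Pearson coefficients across genes of 0.863 to 0.967, genes not being independent replicates. The markers of the sorted types followed the labels. All 10 basal markers were lower in luminal cells in both comparisons, beside 8.45% and 7.22% of all genes in intact and castrated mice. Of 9 luminal markers, 7 were higher in each, beside 11% and 11.2%, and 6 in both. The basal markers include Itga6, which encodes the sorted antigen CD49f, and Itgb4, which encodes a partner chain. The direction of Itga6 was therefore set in part by the sort. Summed signals of marker lists of other cell types also differed between the groups. The summed signal of 9 fibroblast markers was 7851 to 14242 in intact luminal, 754 to 978 in castrated luminal, 40259 to 51343 in intact basal and 23932 to 29467 in castrated basal cells, and 3 of the 9 stayed below the 40th percentile on all castrated luminal arrays. In castrated basal cells Dcn, which encodes decorin, gave 19295 to 25683 of that sum, and the other 8 markers together 3784 to 4636. That of 8 leukocyte markers was 10148 to 12746 in intact luminal cells, of which Cd52 gave 9602 to 11519, and 406 to 862 in castrated luminal cells, with Ptprc at most 89.1 on any array. That of 6 seminal vesicle markers was 238651 to 394826 in intact luminal and 21239 to 40350 in castrated luminal cells. Urothelial markers, 6 genes, summed to 2298 to 13466 in intact luminal, 11211 to 13491 in castrated luminal and 452 to 1200 in all basal arrays. Upk1a, an uroplakin of the bladder lining, read 11124, 11807 and 575 in intact luminal cells, low in the replicate in which Cldn7, Cldn10, Cldn23 and Tjp1 were low. The other urothelial markers did not share that drop as a list. On the same arrays Upk1b read 1286, 1394 and 1291, Upk2 349, 222 and 179, and Upk3a 14.1, 4.14 and 157. Upk3b read at most 83.2 and Krt20 at most 24.2 there. The part of these cell types in the claudin differences was not tested.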

How the data were processed

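Per the labels' protocols, sorted-cell RNA went through the RNeasy Micro kit, NuGEN Pico amplification and biotin labelling. The intensity values deposited by the authors were MAS5 signal on a linear scale, per the submitters' processing notes, in a version not given in the sources used here. Array medians were 57.7 to 73.9 in castrated and 78.8 to 99.9 in intact mice, at a trimmed mean of 500 on every array. Ratios of 3' to 5' probe sets were 4.18 to 8.70 for Gapdh. Precision is limited by the number of arrays.

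Of 45101 probe sets, 64 controls were left out, and 34945 had 1 symbol, 932 several and 9160 none here. Symbols were checked by Entrez identifier (34741 matched). Log2(signal + 16) was fitted with limma 3.58.1 in R 4.3.3 (group means, intensity trend, Benjamini-Hochberg over 14645 genes, threshold 0.05). A probe set had to exceed the 40th percentile of its array on at least 3 arrays. The limma fit was first tested on simulated log2 data with known changes. Plots were made with Python 3.11.15 and matplotlib 3.10.9.

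The 9 genes, the lists, motifs and tests were chosen with earlier results of these data known. Named in addition were fixed junction genes, up to 6 passing genes per list and comparison with the lowest adjusted p, and the 3 most correlated genes per member. The replicate number was not a block. The series' design text pairs intact with castrated mice, per the labels no number is tied to shared animals of both cell types, and arrays of equal number, after removal of group means, correlated at -0.00723 to 0.0258 across genes, beside -0.0325 to 0.0352 for unequal numbers. Alternatives were other normalizations, constants, filters, probe set rules, variance models, array weights, 2-group fits, a replicate block and leaving out each array. Leaving out the 4 arrays of replicate 3 together was added after seeing the data.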

Additional observations from a re-analysis of the deposited data

Results flagged for a closer look

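Of the 75 further junction genes and 15 transcription factors, 2 passed the interaction test of limma, beside 1.15% of all genes. So small a number is not read as a trait of the lists. The test asks whether a gene changed differently with castration in luminal and in basal cells. The repressor gene Ovol1 differed by 3.40 log2 units between the castration effects (SE 0.56, adjusted p = 0.00634). Its signal was 392, 906 and 299 in intact luminal and 1193, 1501 and 1801 in castrated luminal cells, against 3023, 2380 and 4358 in intact basal and 824, 1081 and 811 in castrated basal cells. The call held in each of the 12 fits without 1 array, and it was lost without an intensity trend and without the 4 arrays of replicate 3. The angiomotin gene Amot differed by 2.15 (SE 0.49, adjusted p = 0.0439). Its signal was 1049, 923 and 1236 in intact luminal and 2490, 1879 and 2828 in castrated luminal cells, against 789, 812 and 973 in intact basal and 298, 577 and 422 in castrated basal cells. The Amot call was lost in 10 of the 12 fits without 1 array, with either other normalization and with a replicate block. Neither gene is among the 9 claudin, occludin and ZO-1 genes, none of which passed that test. Among the marker genes of other cell types named above, Cd52 (-4.65, SE 1.08, adjusted p = 0.0473) and Dcn (-2.82, SE 0.35, adjusted p = 8.73e-04) also passed it. So did Svs2 (4.22, adjusted p = 0.0143), Svs3a (-5.52, adjusted p = 0.00758) and Svs6 (-6.87, adjusted p = 0.0120) of the 6 seminal vesicle markers. Svs3a and Svs6 read at most 25.6 and 20.1 in castrated luminal cells, and Svs2 read 224, 21.0 and 10.4 in castrated basal cells. The sizes for these genes therefore depend on the constant added.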

How the results depend on the processing

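The 12 luminal against basal calls of the 9 genes kept their sign in all 298 refits, and 7 refits lost a call, all for Ocln in intact mice. Beside the fits without 1 array, these were the mean of probe sets (0.72, adjusted p = 0.141, limma), no intensity trend (adjusted p = 0.0637), the 2-group fit (adjusted p = 0.0690) and the other probe set. The number of genes passing between cell types was 5 to 7 without 1 array in intact mice and 6 in castrated mice. After castration, 0 of the 9 genes passed in luminal cells and without each array, but 1 passed with quantile normalization (Cldn7, 0.96), 3 with median centring, 1 with the mean of probe sets (Cldn7), 3 with array weights (Cldn7 0.67, Cldn10 -1.70, Ocln 0.70) and 1 in the 2-group fit (Ocln). Scaling moved the median of all genes in luminal cells from -0.09 to 0.04 (quantile) and 0.29 (median centring), and in basal cells from -0.11 to 0.03 and 0.23. The fit with the replicate number as a block moved no count of these genes (Cldn7 in luminal cells after castration, adjusted p = 0.0509). Arrays of equal number did not deviate together.

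All 43 changes of sign were in differences that had not passed, and the cause was not tested. In luminal cells after castration they were Cldn23 with quantile normalization (0.065) and median centring (0.33), Cldn8 with median centring (0.085) and Cldn1 with its other probe set (0.093). Without 1 array Cldn23 ranged from -0.72 to 0.67 and Cldn4 from -0.067 to 0.14. In basal cells they were Cldn23 with quantile normalization (0.24) and median centring (0.23), Ocln with median centring (0.27), Cldn4 (-0.0052) and Cldn10 (-0.086) with array weights, and Cldn3 with another probe set (0.29). Without the 4 arrays of replicate 3, Cldn3 was 0.33, Cldn4 -0.16, Cldn8 0.11, Cldn10 -0.61 and Cldn23 0.22. Without 1 array the ranges were -1.06 to 0.33 for Cldn3, -0.19 to 0.31 for Cldn4, -0.49 to 0.65 for Cldn10, -0.35 to 0.23 for Cldn23 and -0.18 to 0.011 for Ocln. Between cell types in castrated mice, Cldn4 turned with quantile normalization (0.083) and without replicate 3 (0.13), and ranged from -0.42 to 0.091 without 1 array. In the interaction, quantile normalization gave 0.10 for Cldn4 and -0.18 for Cldn23, array weights gave 0.12 and -0.32, and leaving out replicate 3 gave -0.045 for Cldn3, 0.34 for Cldn4, -0.43 for Cldn8 and -0.57 for Cldn23. Without 1 array the interaction ranged from -0.079 to 1.31 for Cldn3, -0.27 to 0.23 for Cldn4, -0.13 to 1.39 for Cldn8 and -0.61 to 0.78 for Cldn23.

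Counts over all genes were less steady. In luminal cells after castration 858 passed, against 555 without an intensity trend, 1945 with array weights, 520 without replicate 3 and 401 to 984 without 1 array. In basal cells 384 passed, against 626 with median centring, 155 without a trend, 202 with weights, 120 in the 2-group fit and 175 to 623 without 1 array. Between cell types in castrated mice 2701 passed, and 1720 to 3109 without 1 array. The interaction passed 168, against 27 without a trend, 83 without replicate 3 and 65 to 163 without 1 array.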
